A study of Rattus norvegicus with 372 samples.

Results

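The ribosome biogenesis genes examined here are 34 genes whose products make, modify, cut and assemble ribosomal RNA (rRNA) into ribosomal subunits. The list was set by gene names, with earlier results of these data known, and the probes of a gene were found by its symbol in the count table of the whole-transcriptome (WT) assay, with the table of the surrogate (ST) assay as a check. Of the 34 genes, 28 had a WT probe, and 27 of the 10191 genes tested in the WT assay were ribosome biogenesis genes. The WT table had no probe named for Fbl, Nop16, Pes1, Heatr1, Ftsj3 and Mybbp1a. Dkc1 had a WT probe but a mean of 0.02 counts per well, below the minimum mean of 10 counts, and was not tested. The ST assay had probes for 21 of the 34 genes, 20 of which were tested.

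Ribosomes are made in the nucleolus, where RNA polymerase I transcribes a long precursor of the rRNA. Small nucleolar particles of the box C/D and box H/ACA classes guide chemical changes to this precursor, the small subunit processome folds and cuts the part that becomes the 40S subunit, and a separate line of assembly factors builds the 60S subunit. The genes for these factors are commonly transcribed together, MYC is a well-known activator of many of them through a DNA sequence called the E-box, and a block in the pathway is known to stabilise p53. Hepatocytes secrete large amounts of protein and depend on a large stock of ribosomes.

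Primary hepatocytes of male Wistar rats, kept in collagen sandwich in a medium with insulin, dexamethasone and EGF, were treated for 24 h with 14 chemicals at 2 concentrations in 0.5% DMSO. Low and high concentrations were 400 and 10000 µM for acetaminophen, caffeine, isoniazid and valproic acid (labelled Valproic), 18 and 450 µM for chloramphenicol, 16 and 400 µM for diclofenac, 0.08 and 2 µM for doxorubicin, 12 and 300 µM for indomethacin, 0.6 and 15 µM for ketoconazole, 80 and 2000 µM for naproxen, 160 and 4000 µM for ranitidine, 2.4 and 60 µM for simvastatin, 4 and 100 µM for sulfasalazine, and 8 and 200 µM for WY14643, a peroxisome proliferator that activates PPARα. Each of the 2 batches used the cells of 1 rat with 3 wells per treatment, so that the wells of a batch are technical replicates, the rats are the only biological replicates, and the rat, library preparation and sequencing run of a batch cannot be told apart. Vehicle (0.5% DMSO) was given to 3 wells in batch 1 and 6 wells in batch 2, and as many wells had culture medium alone. The vehicle wells of batch 1 were all on plate 4, so treatments on the other plate of that batch (ketoconazole, WY14643, acetaminophen, indomethacin, sulfasalazine and chloramphenicol) had no vehicle on their own plate. A WT well had 2289425 to 8975207 reads (median 6840355) and an ST well 558190 to 2210264 (median 1420732).

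The 27 genes were compared with vehicle by L2FC, the log2 fold change of a fit across all genes and all WT wells with batch as a term. A differentially expressed gene (DEG) has an adjusted p under 0.05 (edgeR quasi-likelihood test, Benjamini-Hochberg adjustment over 10191 genes). Fits in which the wells of a treatment were summed within each rat, which leaves 2 values per treatment, are given beside a count where they change it by more than 1.5 times. In the cells as a whole, hepatocyte markers (Alb, Ttr, Apoa1, Serpina1, Tat and Hnf4a) summed to between 5740 and 43500 CPM (median 30700) per well, where CPM is the count scaled to a common total of reads (counts per 1e6 reads), without the trimmed-mean scaling of the fit. Markers of Kupffer cells and leukocytes summed to between 4.0 and 80.6 CPM, the median level of each of the 4 endothelial markers was under 1 CPM, and the markers of stellate cells and fibroblasts summed to 3.38 to 207 CPM. In such bulk samples fewer cells of a type and less RNA per cell cannot be told apart.

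Promoter sequence was at hand for 30 of the 34 genes, as RefSeq windows (assembly GRCr8) of 250 bases before to 50 bases after the transcription start, and none was at hand for Bop1, Rrs1, Wdr43 and Ccdc86. The E-box CACGTG, which reads alike on both strands, was in 12 of the 30 windows (40%), against 6.42% of all 33469 windows and 9.55% of the 8378 windows of genes tested in the WT assay. The letters CCGGAAG or, on the other strand, CTTCCGG, the core that ETS factors bind, were also in 12 of the 30 windows, against 8.75% and 18.5%, and do not overlap the E-box letters. Such a match is a description of the sequence and not evidence of binding. Windows of 4 genes are printed 5′ to 3′ on the strand of the gene with the E-box in capitals, because Rrp12 and Bysl were among the genes with the widest range of L2FC, Pak1ip1 holds 2 E-boxes, and Ncl, the most abundant of the 6 genes followed well by well, holds none.
Rrp12 (chr1:250655269-250655568, minus strand): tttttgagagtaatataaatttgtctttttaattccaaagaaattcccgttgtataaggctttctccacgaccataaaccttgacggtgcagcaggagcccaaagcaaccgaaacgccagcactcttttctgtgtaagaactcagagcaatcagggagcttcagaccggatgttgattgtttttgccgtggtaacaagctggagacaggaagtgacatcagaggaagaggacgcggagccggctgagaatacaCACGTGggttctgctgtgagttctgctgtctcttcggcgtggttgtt
Bysl (chr9:20880091-20880390, plus strand): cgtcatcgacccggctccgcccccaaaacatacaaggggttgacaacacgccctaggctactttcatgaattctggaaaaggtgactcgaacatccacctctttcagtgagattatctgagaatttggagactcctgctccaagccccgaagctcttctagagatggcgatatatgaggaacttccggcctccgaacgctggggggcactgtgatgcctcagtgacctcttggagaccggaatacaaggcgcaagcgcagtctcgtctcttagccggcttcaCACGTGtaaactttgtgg
Pak1ip1 (chr17:23959006-23959305, minus strand): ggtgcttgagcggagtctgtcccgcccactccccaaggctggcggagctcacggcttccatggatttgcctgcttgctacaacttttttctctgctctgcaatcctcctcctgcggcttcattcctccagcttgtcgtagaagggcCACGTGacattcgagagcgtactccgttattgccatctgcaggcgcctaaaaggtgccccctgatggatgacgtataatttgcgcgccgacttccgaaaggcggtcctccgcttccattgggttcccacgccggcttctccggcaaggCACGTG
Ncl (chr9:94456034-94456333, minus strand): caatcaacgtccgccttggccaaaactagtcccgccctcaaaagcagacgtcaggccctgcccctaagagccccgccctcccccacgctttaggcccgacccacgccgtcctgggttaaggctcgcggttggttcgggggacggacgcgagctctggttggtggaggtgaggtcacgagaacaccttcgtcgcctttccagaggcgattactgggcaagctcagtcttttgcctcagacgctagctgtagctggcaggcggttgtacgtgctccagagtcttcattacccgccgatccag

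The E-boxes lay on either side of the start. Those of Rrp12 (4), Tsr1 (21), Fbl (22), Ebna1bp2 (31), Bysl (33) and Nop2 (39) began at the given position, with the start base itself counted. Those of Gnl3 (-25), Pes1 (-50), Utp20 (-127) and Dkc1 (-184) began before the start, and Mybbp1a (-156 and -1) and Pak1ip1 (-104 and 45) had 2 each.

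**Figure D1:**
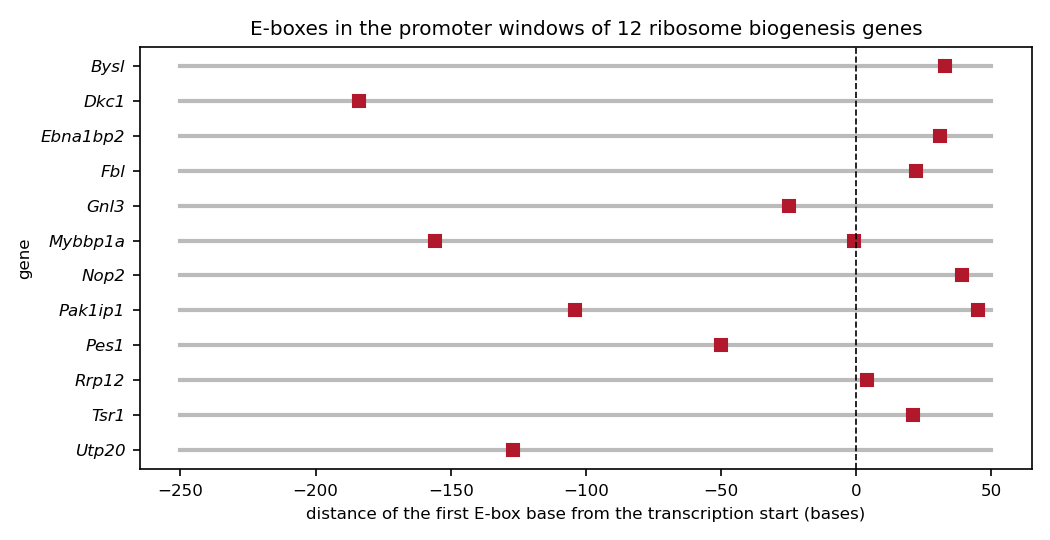
Promoter windows of the 12 ribosome biogenesis genes with an E-box, drawn as grey lines against the distance from the transcription start in bases (x axis), with a red square at the first base of each E-box and a dashed line at the start. Rrp12 has its E-box at position 4, with the start base itself counted, and Dkc1 184 bases before the start.

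Over the 14 high concentrations, 150 of 378 tests of a gene in a treatment were DEGs that rose and 47 were DEGs that fell. The shares of all genes in these treatments ran from 9.07% to 38.8% higher and from 10.3% to 40.1% lower. In the fit of wells summed within a rat, 105 rose and 26 fell. Over the 14 low concentrations, 1 rose and 42 fell, and these came from only 4 treatments (valproic acid, WY14643, naproxen and sulfasalazine). In the fit of wells summed within a rat, 16 of these 43 were DEGs, all with 400 µM valproic acid or 8 µM WY14643. The share of all genes called was likewise smaller at the low than at the high concentration for each chemical except WY14643. In the other 10 low concentrations edgeR and DESeq2 called none of the 27 genes in the WT assay, and 0 to 6 genes per treatment had an unadjusted edgeR p under 0.05. The ST assay called 1 gene in these 10, Ppan with 2.4 µM simvastatin (0.30 ± 0.09, edgeR adjusted p = 0.0237), from the same probe. The shares of all genes that were higher and lower at these low concentrations were 0.716% and 0.667% with acetaminophen, 0.0883% and 0.0294% with caffeine, 0.0687% and 0.0196% with chloramphenicol, 0.118% and 0.0196% with diclofenac, 1.08% and 0.245% with doxorubicin, 3.53% and 2.34% with indomethacin, 0.0196% and 0.0% with isoniazid, 0.844% and 0.775% with ketoconazole, 0.0393% and 0.0196% with ranitidine and 1.13% and 1.28% with simvastatin. Culture medium alone differed from vehicle in 1 gene (Npm1, L2FC 0.40 ± 0.14, SE, adjusted p = 0.037), against 7.51% of all genes higher and 5.1% lower, and the fit of wells summed within a rat called none (0 at an unadjusted p under 0.05). The 6 vehicle wells of batch 2, which lay on 2 plates, differed between plates in no gene of the 10191 at an adjusted p under 0.05 (1409 at an unadjusted p under 0.05, 4 of them ribosome biogenesis genes).

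**Figure D2:**
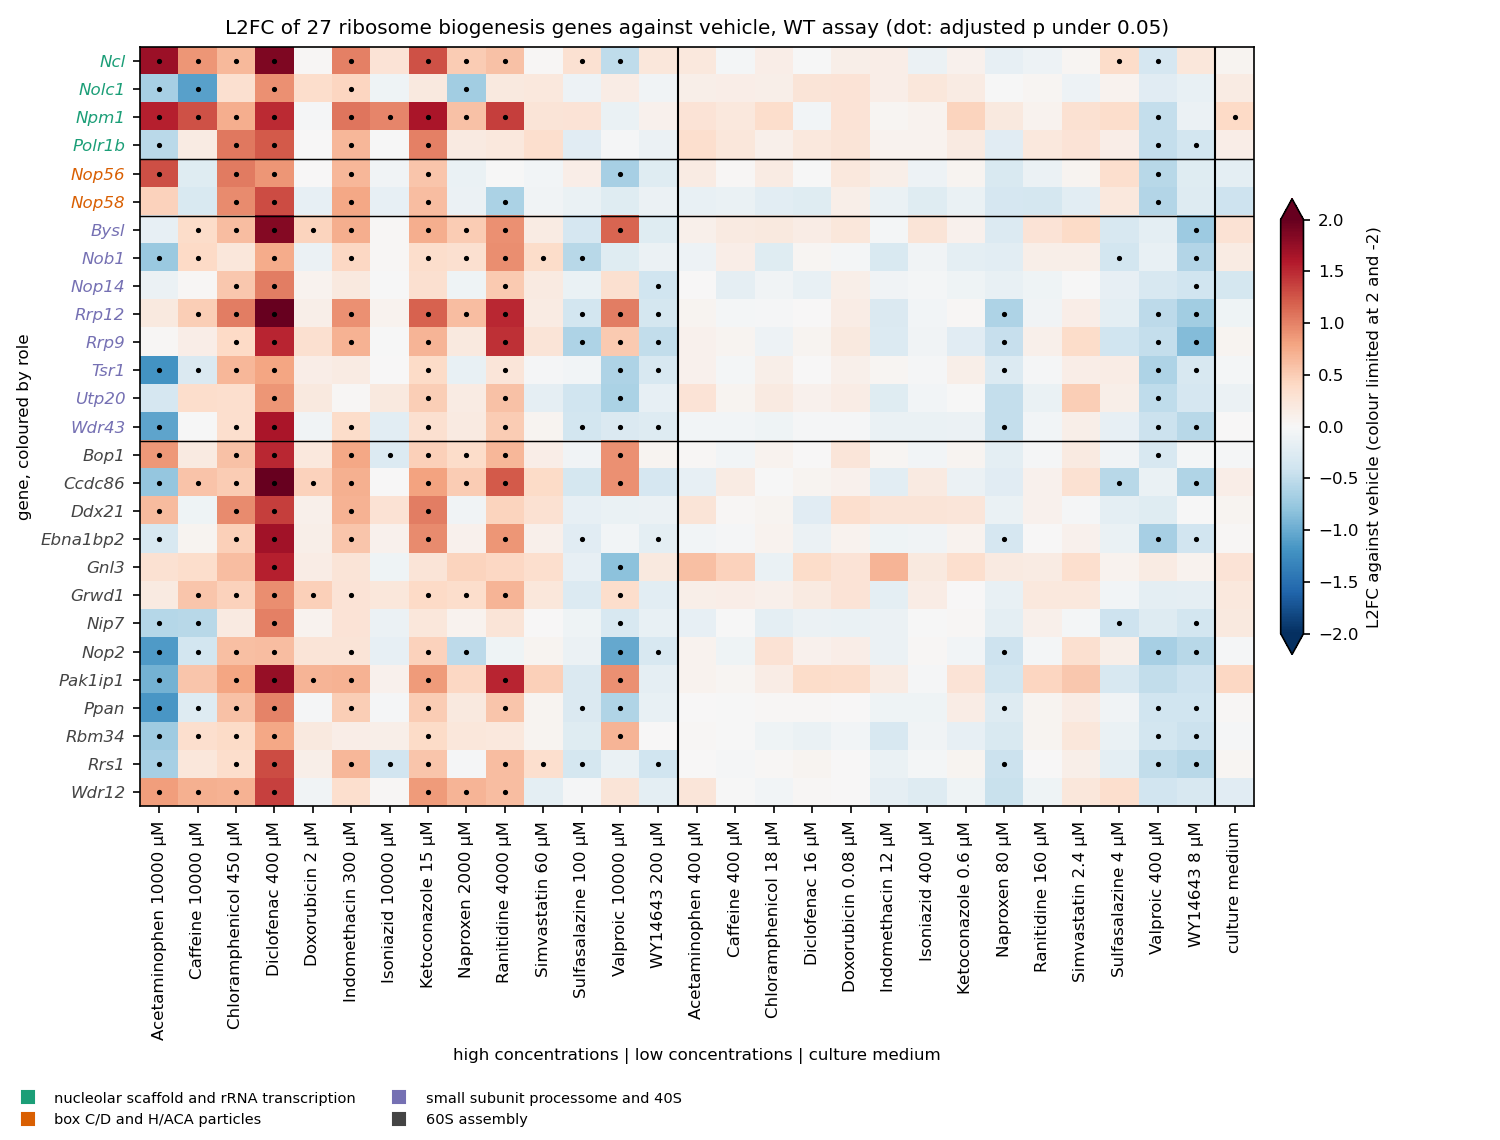
L2FC against vehicle (colour, limited at 2 and -2) of 27 ribosome biogenesis genes (rows, grouped and coloured by role) in 14 high concentrations, 14 low concentrations and culture medium (columns) of the WT assay, where a dot marks an adjusted p under 0.05. The column of diclofenac 400 µM is red in all 27 rows, acetaminophen 10000 µM and valproic acid 10000 µM hold both red and blue rows, and the columns of valproic acid 400 µM and WY14643 8 µM are mostly blue.

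The response was widest with 400 µM diclofenac, a non-steroidal anti-inflammatory drug, in which all 27 genes rose (L2FC 0.62 to 2.76, median 1.31), against 36.0% of all genes higher and 35.8% lower. The summed level of the measured genes was 3870 to 4580 CPM in batch 1 and 4240 to 4350 CPM in batch 2, and with vehicle it was 1520 to 1700 CPM and 1140 to 1330 CPM. No well with diclofenac overlapped a vehicle well. The largest rise was that of Rrp12, which acts in export and maturation of pre-40S particles. Its level was 21.9 to 35.5 CPM (median 25.2) in the 9 vehicle wells and 143 to 246 CPM (median 215) in the 6 wells with diclofenac. The L2FC of Rrp12 was 2.76 ± 0.13 (adjusted p = 1.45e-45), with 2.30 in batch 1 and 3.09 in batch 2, and the difference between the batches was itself a DEG (adjusted p = 0.00329).

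Ccdc86, a nucleolar protein grouped here with 60S assembly, rose from 15.4 to 30.0 CPM (median 22.9) with vehicle to 88.3 to 132 CPM (median 104) with diclofenac, an L2FC of 2.14 ± 0.15. Ncl encodes nucleolin, an abundant nucleolar RNA-binding protein. It had 189 to 358 CPM (median 234) with vehicle and 933 to 1200 CPM (median 986) with diclofenac, an L2FC of 1.87 ± 0.12. Bysl, a factor of 40S maturation, had 10.7 to 20.4 CPM (median 15.2) and 53.9 to 71.0 CPM (median 59.2), an L2FC of 1.83 ± 0.14. Rrp9, which binds the U3 particle of the processome, had 15.5 to 27.1 CPM (median 20.7) and 48.9 to 79.1 CPM (median 65.0), an L2FC of 1.53 ± 0.15. In each of these genes the lowest well with diclofenac lay above the highest with vehicle. Gnl3, the nucleolar GTPase nucleostemin, was scarce, with 1.45 to 2.73 CPM (median 1.96) with vehicle and 2.92 to 9.92 CPM (median 5.91) with diclofenac, an L2FC of 1.55. Here too the wells did not overlap, although the lowest diclofenac well was only just above the highest vehicle well.

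All 4 tested genes of the nucleolar scaffold and rRNA transcription rose with diclofenac, among them Npm1 (nucleophosmin, L2FC 1.49), Polr1b (the second largest subunit of RNA polymerase I, 1.23) and Nolc1 (a chaperone of small nucleolar particles, 0.91). Both tested box C/D core genes rose (Nop58 1.31, Nop56 0.88), as did all 8 genes of the small subunit processome and 40S maturation, with Utp20 (0.89) and Nob1 (the nuclease that trims the 3′ end of 18S rRNA, 0.74) at the lower end. The 13 genes of 60S assembly also all rose, from 0.62 (Nop2, which methylates 28S rRNA) to 2.14, with Bop1 (1.51) and Wdr12 (1.36), partners in the PeBoW complex, near the middle. The rise held in the fit of wells summed within a rat (27 of 27) and against 16 µM diclofenac (27 of 27, median L2FC 1.25), where 35.1% of all genes were higher. For 7 genes (Bop1, Bysl, Ddx21, Nolc1, Nop14, Rrp12 and Wdr43) the L2FC differed between the batches, whose medians were 0.91 and 1.47. Hepatocyte markers fell with diclofenac (6 of 6 were lower DEGs, median L2FC -2.23), to a sum of 5740 to 7780 CPM per well against 28000 to 36600 CPM with vehicle, and 3 of 4 Kupffer cell and leukocyte markers were lower and 1 was higher. Both tested markers of stellate cells and fibroblasts, of bile duct cells and of dividing cells were lower. Summed within a rat, 1 stellate cell, 2 bile duct and 1 dividing cell markers were DEGs. The part of all these markers in the result was not tested.

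**Figure D3:**
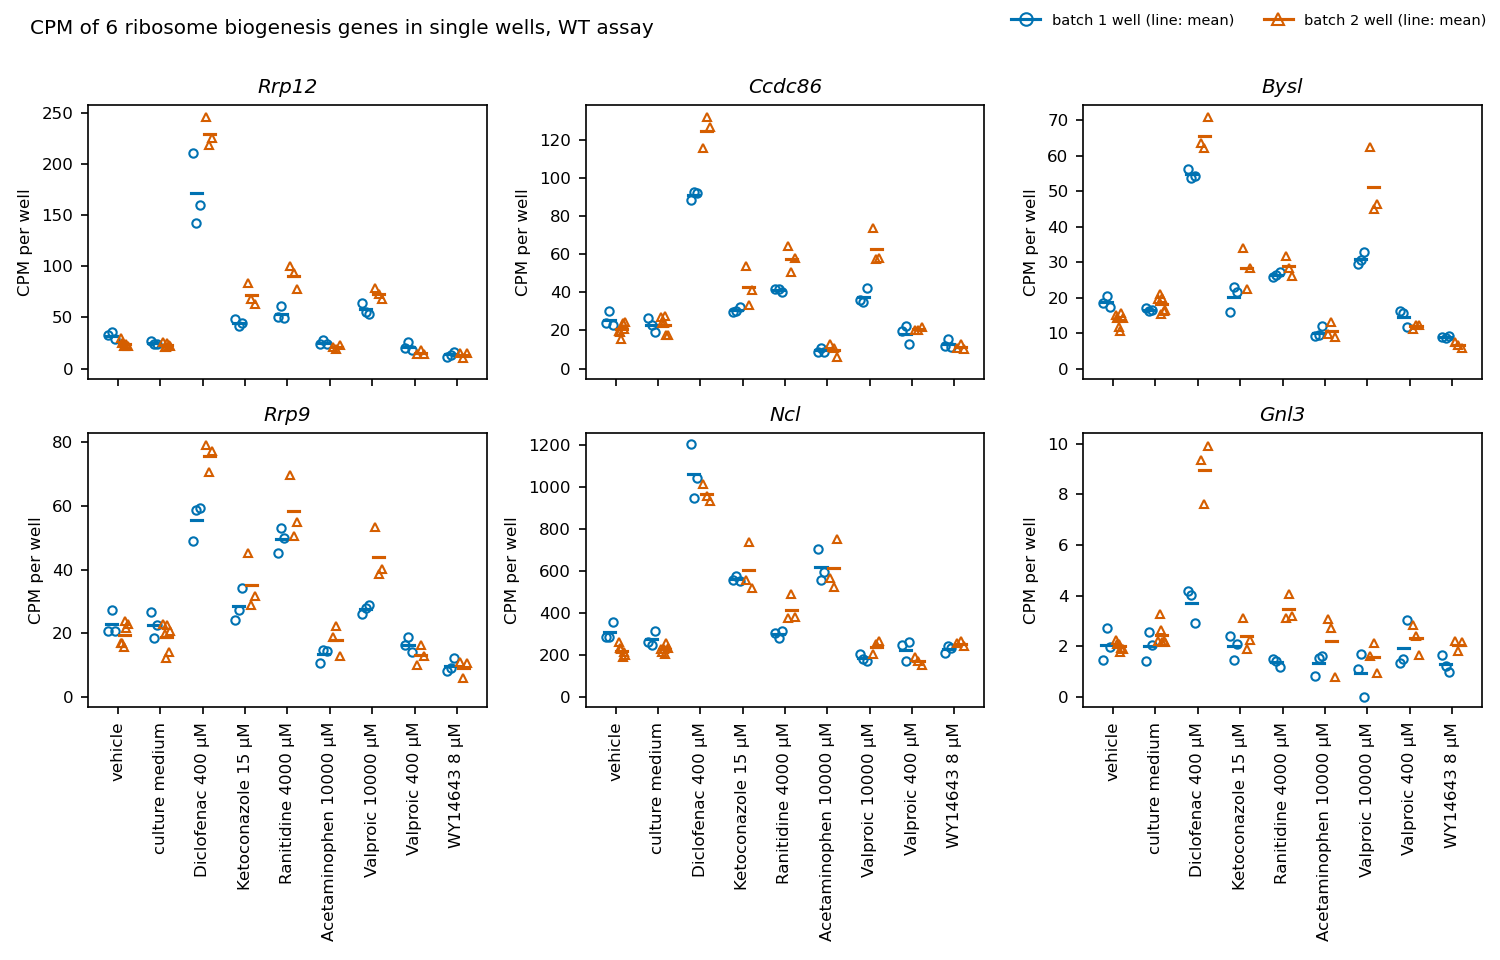
CPM of 6 ribosome biogenesis genes in single WT wells (y axes) with vehicle, culture medium and 7 treatments (x axes), with circles for batch 1, triangles for batch 2 and a line at the mean of a batch. Every well with 400 µM diclofenac is above every vehicle well in the 6 genes, and Ncl is also above vehicle in all wells with 10000 µM acetaminophen, where Ccdc86 lies at 5.97 to 12.7 CPM.

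The genes also rose together, to a smaller extent, with ketoconazole, chloramphenicol, indomethacin and ranitidine, whose comparisons share the vehicle wells with each other and with diclofenac. Ketoconazole (15 µM), an antifungal azole, raised 23 of 27 genes and lowered none (median L2FC 0.55), against 25.0% of all genes higher and 26.3% lower. The strongest were Npm1 (1.63 ± 0.15), Ncl (1.27 ± 0.12), Rrp12 (1.18 ± 0.13) and Ddx21, an RNA helicase of the nucleolus (1.02 ± 0.23). Probe sequences were not used here, so whether the probe of Npm1 also reads processed copies of the gene is uncertain. Ncl was at 521 to 741 CPM (median 557) in the wells with ketoconazole, all above the vehicle wells. Batch 1 gave a median of 0.26 and batch 2 one of 0.84, the L2FC of 7 genes differed between the batches, and Nob1, Rbm34 and Wdr43 had L2FC of opposite sign in the batches. Batch 1 alone called 7 of the 27 genes. Hepatocyte markers were higher in 1 and lower in 4 of 6, with a sum of 15800 to 20600 CPM. Of 4 Kupffer cell and leukocyte markers 1 was higher and 3 lower, and 1 and 1 with wells summed within a rat. Both tested markers of dividing cells were lower, and 1 of 2 of bile duct cells was higher, though not summed within a rat. The part of these markers was not tested. Against 0.6 µM ketoconazole, 22 genes were higher and none lower, against 20.2% of all genes higher.

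With 450 µM chloramphenicol, an antibiotic that blocks mitochondrial protein synthesis, 22 of 27 genes rose and none fell (median L2FC 0.59), while 16.1% of all genes were higher and 17.2% lower. In this comparison the RNA polymerase I subunit Polr1b led (1.06 ± 0.14, 2.08-fold), followed by Nop56 (1.04 ± 0.15), Rrp12 (1.03 ± 0.13) and Nop58 (0.95 ± 0.21). Rrp12 was at 50.5 to 71.1 CPM in the 6 wells, above all vehicle wells. No gene differed between the batches by the interaction test, with 0.373% of all genes doing so. The counts depended on the unit of replication, as 10 of the 22 genes were DEGs in the fit of wells summed within a rat, and 8 in batch 1 alone. Against 18 µM chloramphenicol, 20 genes were higher and none lower, with 9.82% of all genes higher, and 7 of these genes were DEGs in the fit of wells summed within a rat. The hepatocyte markers summed to 16400 to 25800 CPM (1 higher and 2 lower of 6) with 450 µM. Lower and never higher were 1 of 4 Kupffer cell and leukocyte markers and both tested ones of stellate and of bile duct cells. Summed within a rat, no stellate cell marker (2 at an unadjusted p under 0.05) and 1 bile duct marker was a DEG. The part of these markers was not tested.

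Indomethacin (300 µM), like diclofenac an inhibitor of cyclooxygenases, raised 20 genes and lowered none (median L2FC 0.56), against 27.1% of all genes higher and 27.6% lower. All 4 nucleolar scaffold and transcription genes rose, and the leading genes were Npm1 (1.07 ± 0.15), Ncl (1.01 ± 0.12), Rrp12 (0.91 ± 0.13) and Bop1 (0.78 ± 0.10). Utp20 (0.03) and Rbm34 (0.14) had the smallest values and did not pass the test. Npm1 had an L2FC of 0.50 in batch 1 and 1.46 in batch 2, and Ncl 0.50 and 1.39, and both differences passed the test. Batch 1 alone called 11 genes. Rrp12 was at 40 to 53.2 CPM (median 43.5), above all vehicle wells. Against 12 µM indomethacin, 20 genes were higher and none lower, with 20.5% of all genes higher. With 300 µM, hepatocyte markers were higher in 2 and lower in 2 of 6. Lower and never higher were 3 of 4 Kupffer cell and leukocyte markers, 1 of 2 of bile duct cells, and both tested ones of stellate and of dividing cells. The part of these markers was not tested.

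Ranitidine (4000 µM), a blocker of the histamine H2 receptor, raised 18 genes and lowered 1 (median L2FC 0.59), against 32.3% of all genes higher and 33.9% lower. All 8 genes of the small subunit processome and 40S maturation and 8 of 13 genes of 60S assembly rose, with Pak1ip1 (1.53 ± 0.24), Rrp12 (1.5 ± 0.13) and Rrp9 (1.46 ± 0.15) in front. Npm1 also rose (1.38 ± 0.15), while the other probe of Npm1 in the ST assay had an L2FC of 0.20 ± 0.23 and did not pass the test (adjusted p = 0.44, edgeR). Rrp9 was at 45.2 to 69.9 CPM, above all vehicle wells. Of the box C/D core genes, Nop58 fell (-0.64 ± 0.23) and Nop56 had an L2FC of -0.01 in the WT assay. With the same probes in the ST assay, Nop58 had an L2FC of 0.02 ± 0.22 and Nop56 rose (0.39 ± 0.16, edgeR adjusted p = 0.0215). The batches differed in 12 genes, more than in any other treatment, against 13% of all genes. Nop58 had an L2FC of -1.45 in batch 1 and -0.09 in batch 2, and Nop14 and Tsr1 had opposite signs in the batches. Hepatocyte markers were lower in 6 of 6 and summed to 10400 to 15500 CPM. Kupffer cell and leukocyte markers were higher in 1 and lower in 3 of 4, and both tested stellate cell markers were lower. Of 2 markers of bile duct cells 1 was higher and 1 lower, and 1 of 2 of dividing cells was lower. The part of these markers was not tested. Against 160 µM ranitidine, 18 genes were higher and none lower, with 28.9% of all genes higher.

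**Figure D4:**
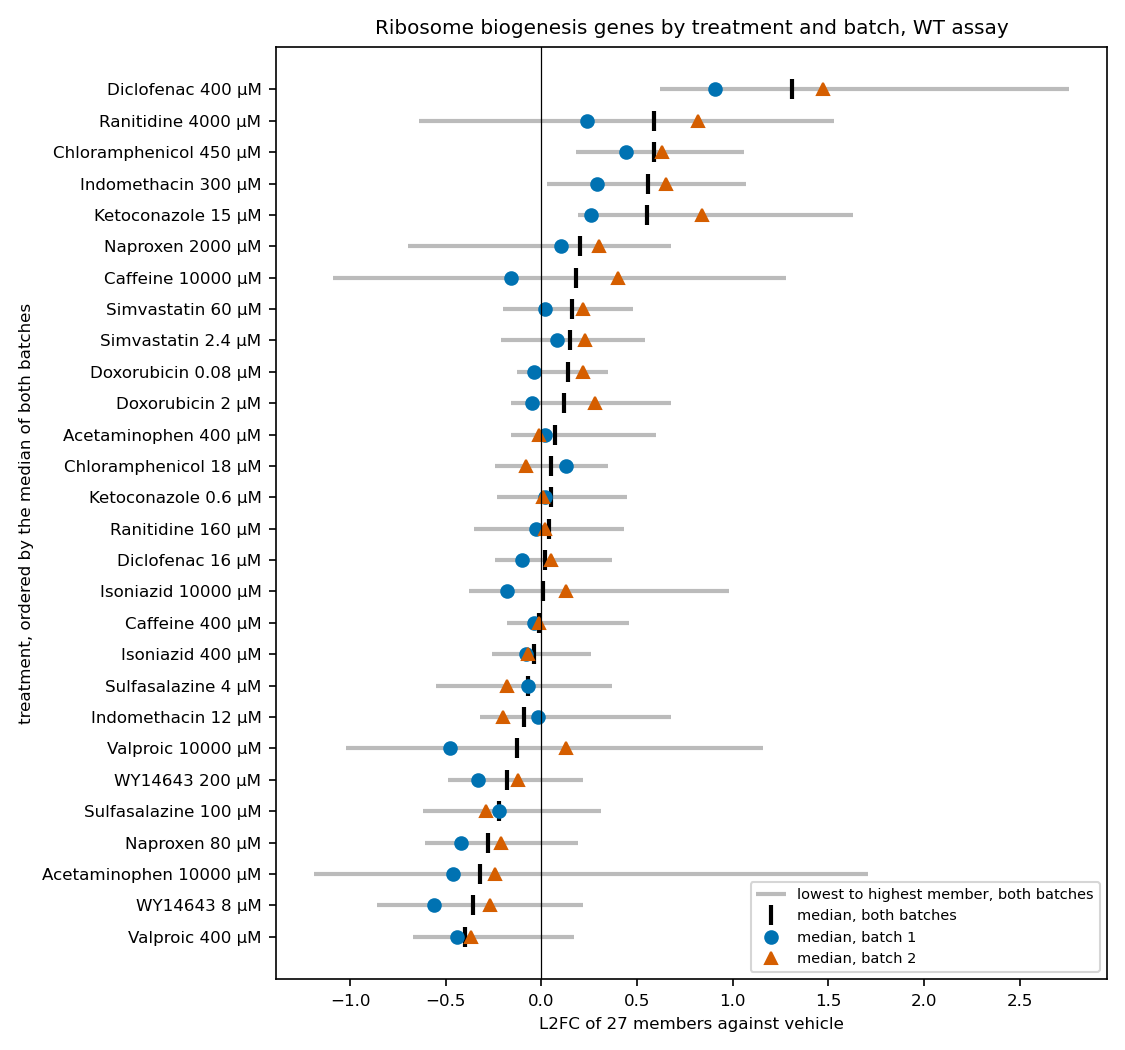
L2FC against vehicle (x axis) of the 27 ribosome biogenesis genes in the 28 treatments (y axis, ordered by the median over both batches), with a grey line from the lowest to the highest gene, a black bar at the median of both batches, and the median of batch 1 (circle) and batch 2 (triangle). The median of batch 2 lies above that of batch 1 in all of the 5 treatments with the highest medians, from 0.24 against 0.82 for ranitidine to 0.91 against 1.47 for diclofenac.

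Acetaminophen at 10000 µM raised 6 and lowered 13 of 27 (median L2FC -0.32), while 38.8% of all genes were higher and 40.1% lower, so that the share that rose was below that of all genes and the share that fell was near it. By ST, 8 of 20 rose and 8 fell, near the 38.6% and 42.0% of the genes of that assay. The 6 genes that rose were Ncl (1.71 ± 0.12), Npm1 (1.55 ± 0.15), Nop56 (1.29 ± 0.15), Bop1 (0.86 ± 0.10), Wdr12 (0.83) and Ddx21 (0.63). Ncl had 523 to 755 CPM (median 584), above all vehicle wells. Those that fell were led by Tsr1, a GTPase-like factor of 40S maturation (-1.19 ± 0.10), Ppan, a factor of 60S assembly (-1.17 ± 0.10), Nop2 (-1.13 ± 0.12) and Wdr43, a processome subunit (-1.05 ± 0.10). Polr1b (-0.54), Nolc1 (-0.67), Nob1 (-0.74), Rrs1 (-0.66), Ccdc86 (-0.78) and Pak1ip1 (-0.94) fell as well. Ccdc86 had 5.97 to 12.7 CPM (median 9.82), below all vehicle wells. Rrp12 (0.19), Rrp9 (0.03), Bysl (-0.16), Utp20 (-0.34), Nop58 (0.46) and Gnl3 (0.31) did not pass the test.

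Each of the 19 DEGs with acetaminophen had the same sign in both batches, and the fit of wells summed within a rat called 5 higher and 12 lower. On a scale of total reads alone the median of all genes moved by -0.41, and 5 genes were then higher and 17 lower. By role, 8 of 13 genes of 60S assembly and 3 of 8 of the small subunit fell, 3 and none rose, and 2 of the 4 scaffold and transcription genes went each way. Against 400 µM acetaminophen, 6 genes were higher and 14 lower (37.1% and 39.2% of all genes), with Ncl (1.5) and Tsr1 (-1.28) at the ends. With 10000 µM, hepatocyte markers were higher in 1 and lower in 3 of 6, and Kupffer cell and leukocyte markers were higher in 1 and lower in 3 of 4. Both tested markers of stellate cells and both of dividing cells were lower. The part of these markers was not tested.

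Caffeine (10000 µM), a methylxanthine, gave 9 genes higher and 5 lower (median L2FC 0.18), against 34.6% and 31.6% of all genes, so that the share higher was near that of all genes and the share lower was below it. Npm1 (1.28 ± 0.15), Ncl (0.88 ± 0.12), Wdr12 (0.71 ± 0.17) and Ccdc86 (0.57 ± 0.15) rose most. Nolc1 (-1.09 ± 0.19), Nip7, a factor of 60S assembly (-0.55 ± 0.15), Nop2 (-0.37 ± 0.11) and Tsr1 (-0.29 ± 0.10) fell most. The fit of wells summed within a rat called 5 higher and 3 lower. The medians of the batches had opposite signs (-0.16 and 0.40), and 7 genes differed between them. Against 400 µM caffeine, 7 genes were higher and 5 lower (31.4% and 30.2% of all genes), and 4 and 2 in the fit of wells summed within a rat. With 10000 µM, hepatocyte markers were higher in 2 and lower in 3 of 6, and 1 and 3 with wells summed within a rat. Lower and never higher were 3 of 4 Kupffer cell and leukocyte markers and both tested ones of stellate and of dividing cells. The part of these markers was not tested.

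Valproic acid, an inhibitor of histone deacetylases, was given at 400 and 10000 µM. At 400 µM it lowered 16 of 27 genes and raised none (median L2FC -0.40), against 14.0% of all genes lower and 15.1% higher. The largest falls were those of Nop2 (-0.67 ± 0.11), Ebna1bp2, a factor of 60S assembly (-0.67 ± 0.09), Tsr1 (-0.61 ± 0.10) and Nop58 (-0.59 ± 0.23). All 16 had the same sign in both batches. Summed within a rat, 6 were DEGs. Rrp12 had 14.2 to 26.4 CPM (median 18.0), and Ncl 153 to 259 CPM (median 179), and these wells overlapped those with vehicle over both batches. Within a batch, Rrp12 did not overlap, with 18.2 to 26.4 CPM against 28.6 to 35.5 CPM in batch 1 and 14.2 to 17.8 CPM against 21.9 to 29.9 CPM in batch 2. The markers of dividing cells were higher (Top2a 1.18 ± 0.30, Mki67 0.96 ± 0.28), though neither was a DEG with wells summed within a rat, and their part was not tested. Both were lower at the high concentrations of acetaminophen, caffeine, diclofenac, indomethacin, ketoconazole, simvastatin and valproic acid. With wells summed within a rat, 1 was lower with diclofenac and none with simvastatin.

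At 10000 µM valproic acid, 8 genes rose and 9 fell (median L2FC -0.13), against 33.5% and 33.2% of all genes, so that both shares were near those of all genes. Bysl (1.16 ± 0.14), Rrp12 (1.02 ± 0.13), Pak1ip1 (0.92 ± 0.25) and Ccdc86 (0.92 ± 0.15) rose most, and Nop2 (-1.02 ± 0.11), Gnl3 (-0.82 ± 0.30), Nop56 (-0.66 ± 0.15) and Utp20 (-0.64 ± 0.19) fell most. Bysl was at 29.4 to 62.5 CPM (median 39.0), above all vehicle wells, while Gnl3 had 0 to 2.14 CPM and rested on few reads. Ncl also fell (-0.51). The scale mattered for this treatment. With total reads alone the median of all genes moved by 0.27, 12 genes were higher and 4 lower, and the median L2FC was 0.14. The batches differed in 10 genes. Compared directly, 10000 µM against 400 µM, 13 genes were higher and 2 lower (32.8% and 32.5% of all genes), with Rrp12 (1.53 ± 0.15) and Pak1ip1 (1.41 ± 0.29) first and Gnl3 (-0.99 ± 0.33) last. All 6 hepatocyte markers were lower at 10000 µM than with vehicle, to a sum of 14100 to 19200 CPM. Kupffer cell and leukocyte markers were higher in 1 and lower in 3 of 4, and both tested markers of dividing cells were lower. Of 2 stellate cell markers 1 was lower, and of 2 of bile duct cells 1 was higher. The part of these markers was not tested.

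**Figure D5:**
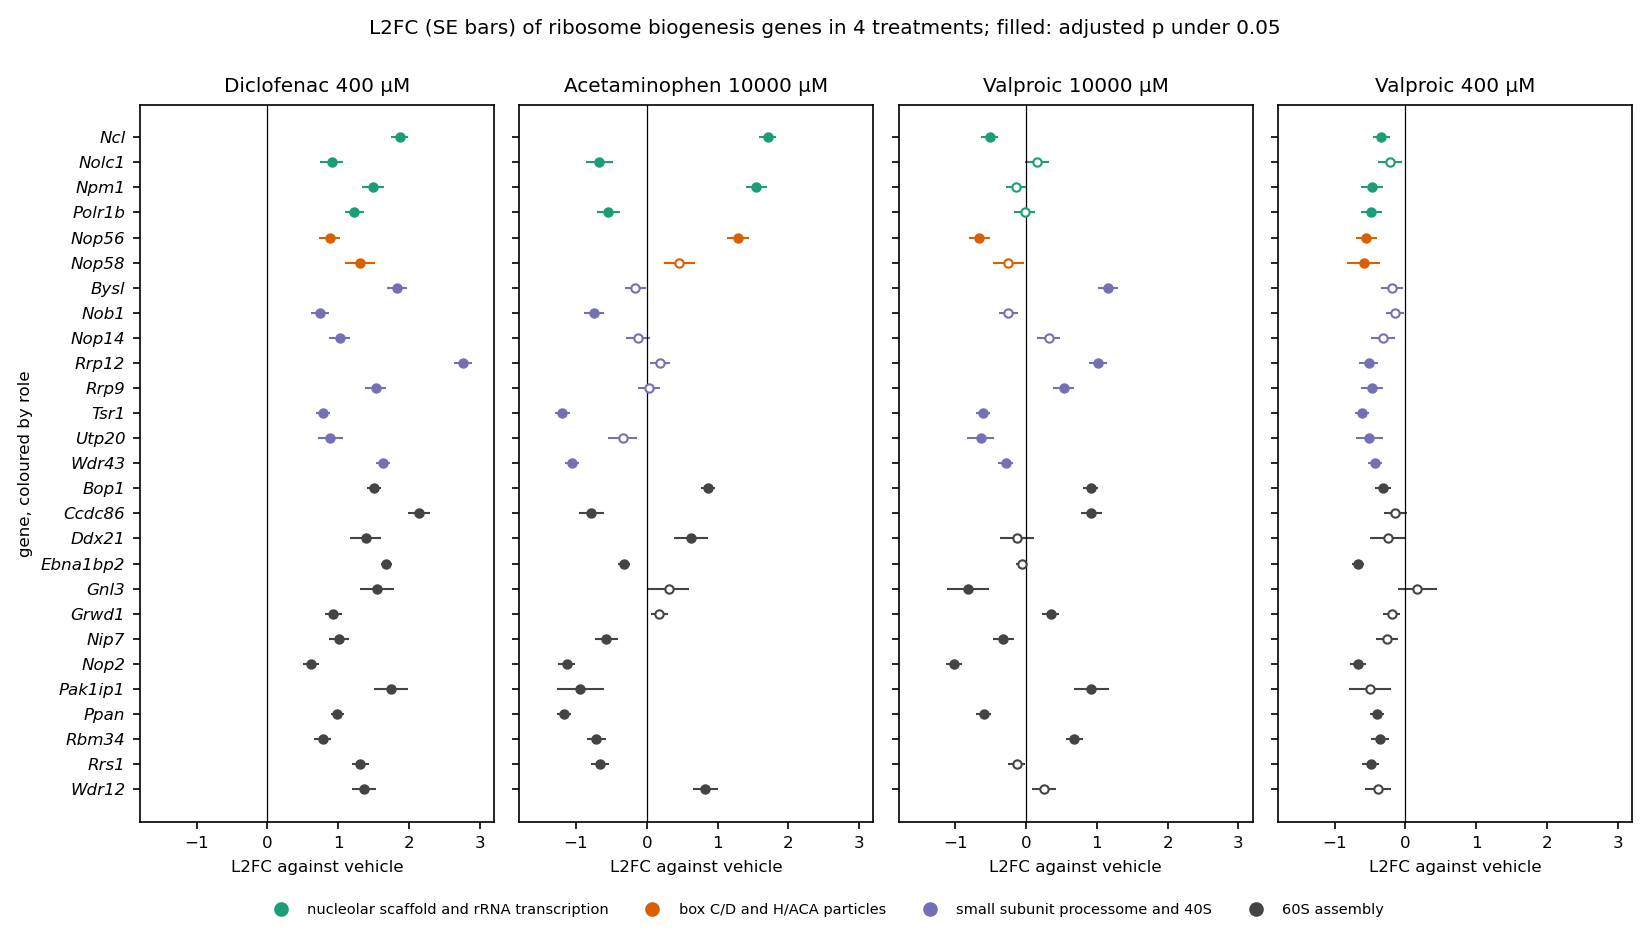
L2FC against vehicle with SE bars (x axes) of 27 ribosome biogenesis genes (y axis, coloured by role) with diclofenac 400 µM, acetaminophen 10000 µM, and valproic acid 10000 and 400 µM, where filled points have an adjusted p under 0.05. All points of diclofenac lie right of 0, acetaminophen spans -1.19 (Tsr1) to 1.71 (Ncl), and valproic acid spans -1.02 (Nop2) to 1.16 (Bysl) at 10000 µM and -0.67 to 0.17 at 400 µM.

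With 8 µM WY14643, 15 of 27 fell and none rose (median L2FC -0.36), against 28.2% of all genes lower and 28% higher. Rrp9 (-0.86 ± 0.17), Bysl (-0.72 ± 0.16), Rrp12 (-0.70 ± 0.15) and Ccdc86 (-0.60 ± 0.17) fell most, and 7 of the 8 genes of the small subunit were among those that fell. Rrp9 had 5.80 to 12.1 CPM (median 9.88), Bysl 5.77 to 9.20 CPM (median 8.13) and Rrp12 10.6 to 16.4 CPM (median 14.1), and no well of these overlapped a vehicle well. All 15 had the same sign in both batches, and 10 were DEGs in the fit of wells summed within a rat. A scale of total reads alone moved the median of all genes by -0.28 and gave 24 lower. Of the 2 tested markers of dividing cells only Mki67 was a DEG (higher, 0.86 ± 0.28). It was not a DEG with wells summed within a rat, and its part was not tested. At 200 µM, 8 fell and none rose (median -0.18), against 25.3% of all genes lower and 26.0% higher, so that the share that fell was near that of all genes. The lowest were Rrp9 (-0.49 ± 0.16), Nop14 (-0.40 ± 0.17), Rrs1 (-0.40 ± 0.12) and Rrp12 (-0.35 ± 0.14). Here the fit of wells summed within a rat called none (3 at an unadjusted p under 0.05), while a scale of total reads alone, which moved the median of all genes by -0.23, gave 17. Directly compared, Nob1 (0.46 ± 0.15) and Rbm34 (0.44 ± 0.14) were higher at 200 µM than at 8 µM, with 2.52% of all genes higher, and neither was a DEG in the fit of wells summed within a rat.

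Naproxen, another inhibitor of cyclooxygenases, lowered 8 genes and raised none at 80 µM (median L2FC -0.28), against 7.4% of all genes lower and 8.64% higher. Rrp12 (-0.61 ± 0.14), Wdr43 (-0.47 ± 0.10), Rrp9 (-0.46 ± 0.16) and Rrs1 (-0.43 ± 0.12) fell most. Rrp12 was at 10.9 to 21.7 CPM (median 15.7), below all vehicle wells. The fit of wells summed within a rat called none of them, with 7 at an unadjusted p under 0.05. At 2000 µM, 9 genes rose and 2 fell (median 0.20), against 27.6% and 26.2% of all genes, so that the share of risen genes was near that of all genes in the WT assay. By ST, 11 of 20 rose and 1 fell, against 30.9% and 30.1% of the genes of that assay. Those named by the largest changes were Wdr12 (0.68 ± 0.17), Rrp12 (0.62 ± 0.14), Npm1 (0.58 ± 0.15) and Bysl (0.51 ± 0.14) upward, and Nolc1 (-0.70 ± 0.18) and Nop2 (-0.52 ± 0.11) downward. Summed within a rat, 3 rose and 2 fell. Between the concentrations, 18 genes were higher and 1 lower at 2000 µM (23.7% of all genes each way), with Rrp12 at an L2FC of 1.24 ± 0.15.

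Sulfasalazine, an anti-inflammatory drug, raised 1 gene (Ncl, 0.31) and lowered 7 at 100 µM (median L2FC -0.22), against 21.3% of all genes higher and 19.6% lower, so that the share lower was near that of all genes. Rrp9 (-0.62 ± 0.17), Nob1 (-0.56 ± 0.13), Rrp12 (-0.37 ± 0.14) and Wdr43 (-0.36 ± 0.10) were lowest. By ST, 12 of 20 fell and none rose, against 20.3% of the genes of that assay lower and 20.1% higher. Ncl had opposite signs in the batches. With total reads alone none rose and 12 fell, and the fit of wells summed within a rat called 1. The direct comparison with 4 µM called none by edgeR or DESeq2 (3 at an unadjusted p under 0.05), with 7.57% of all genes higher and 5.29% lower. At 4 µM, Ncl rose (0.37 ± 0.12) and Ccdc86 (-0.55 ± 0.17), Nip7 (-0.42 ± 0.15) and Nob1 (-0.37 ± 0.13) fell, against 9.35% of all genes higher and 8.03% lower, and summed within a rat none did (3 at an unadjusted p under 0.05). Of the 3 that the ST assay tested, none was a DEG there, with ST values of 0.07 for Ncl, -0.33 for Ccdc86 and 0.17 for Nip7. With total reads alone, 3 fell and none rose.

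The remaining high concentrations moved few of the genes. Isoniazid (10000 µM), an antitubercular drug, raised Npm1 (0.98 ± 0.15) and lowered Rrs1 (-0.38 ± 0.12) and Bop1 (-0.28 ± 0.11), against 17.4% of all genes higher and 17.3% lower. By ST, Npm1 (0.53 ± 0.23), Ncl (0.40 ± 0.15) and Heatr1 rose and none of 20 fell, against 22.3% of the genes of that assay higher and 24.6% lower, and Rrs1 had an ST value of -0.10 ± 0.15 from the same probe. With total reads alone 2 rose and 1 fell, and the fit of wells summed within a rat called 1 higher. Doxorubicin (2 µM), which intercalates DNA and inhibits topoisomerase II, raised Pak1ip1 (0.68 ± 0.26), Grwd1 (0.47 ± 0.12), Ccdc86 (0.46 ± 0.15) and Bysl (0.44 ± 0.14), against 9.07% of all genes higher and 10.3% lower. Simvastatin (60 µM), an inhibitor of cholesterol synthesis, raised Nob1 (0.37 ± 0.13) and Rrs1 (0.33 ± 0.12), against 11.4% and 12.5%. Summed within a rat, none of the 27 was a DEG with doxorubicin (2 at an unadjusted p under 0.05) or simvastatin (1). With doxorubicin 3 of 6 hepatocyte markers were lower and none higher. Lower too were 3 of 4 markers of Kupffer cells and leukocytes (median L2FC -4.31) and both tested ones of stellate cells (-3.41). Of 2 markers of dividing cells 1 was lower, and none with wells summed within a rat. As many Kupffer cell, leukocyte and stellate cell markers were lower at the high concentrations of acetaminophen, caffeine, diclofenac, indomethacin and ranitidine. The part of the markers was not tested. In the direct comparisons of high with low, 2 genes were higher and 1 lower with isoniazid (15.8% and 15.6% of all genes), 1 was lower with simvastatin (12.0%), and edgeR and DESeq2 called none with doxorubicin (1 at an unadjusted p under 0.05), where 4.51% of all genes were higher and 5.81% lower. Summed within a rat, these direct comparisons called 1 gene higher with isoniazid and none with simvastatin (1 at an unadjusted p under 0.05) or doxorubicin (0).

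Among the 27 genes, Rrp12 and Rrs1 were DEGs most often over the 28 treatments (13 treatments each). Next came a tie of Ccdc86, Ncl, Nop2, Ppan and Wdr43 (12 each). Such tallies were not made for all genes, so they rank the 27 genes only among themselves. At the high concentrations 9.07% to 38.8% of all genes rose and 10.3% to 40.1% fell. With wells summed within a rat, the 150 rises and 47 falls of the 27 genes at high concentrations became 105 and 26. The 1 rise and 42 falls at low concentrations became none and 16. Gnl3 was a DEG in 2 treatments and Ddx21, Nolc1, Nop14 and Utp20 in 5 each. The WT probes of Gnl3 and Ddx21 had means of 15.8 and 53.4 counts, and their other probes in the ST assay 517.88 and 279.84. Their place among the fewest thus holds for the WT probes only. The genes differed in the balance of directions. Among the DEGs at high concentrations, Bysl, Npm1 and Grwd1 rose in 9 treatments each and Wdr12 in 7, and these did not fall at any high concentration. Ncl rose in 9 high concentrations and fell in 1, and Bop1 rose in 8 and fell in 1. Nop2 rose in 4 and fell in 5, Tsr1 rose in 4 and fell in 4, Ppan rose in 5 and fell in 4, and Nolc1 rose in 2 and fell in 3. The lowest L2FC of Nop2, Ppan, Tsr1, Wdr43, Ccdc86, Pak1ip1, Nob1, Rbm34, Rrs1, Nip7 and Polr1b was in each case that with 10000 µM acetaminophen, and the highest L2FC of a gene was that with diclofenac, except for Nob1 (ranitidine, 0.93), Npm1 (ketoconazole, 1.63) and Nop56 (acetaminophen, 1.29).

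The presence of the E-box did not divide the responses into separate ranges. With diclofenac, the 8 tested genes with an E-box had a median L2FC of 1.61 (0.62 to 2.76) and the 15 without one 1.02 (0.74 to 1.87). With 10000 µM acetaminophen the medians were -0.33 and 0.03, and with 400 µM valproic acid -0.52 and -0.36. These are descriptions of small sets with overlapping ranges and were not tested.

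The other genes of the pathway, in 4 lists with 94 tested genes, were counted in the same way. With diclofenac 85 of 94 rose and 2 fell (median L2FC 0.97), with ranitidine 63 rose and 6 fell (0.42), with chloramphenicol 61 rose and none fell (0.39), with ketoconazole 61 and none (0.34) and with indomethacin 47 and 2 (0.25), while the median of all genes tested lay between -0.03 and 0.01 in these treatments. With 10000 µM acetaminophen 32 rose and 39 fell (-0.01), shares near the 38.8% and 40.1% of all genes. In the fit of wells summed within a rat, 27 rose with chloramphenicol and 28 with indomethacin, and none fell. At low concentrations, WY14643 (8 µM) lowered 47 and raised 8 (-0.31, against 28.2% of all genes lower and 28% higher), valproic acid (400 µM) lowered 40 (-0.24, against 14.0% lower) and naproxen (80 µM) lowered 26 (-0.20, against 7.4% lower), with none raised by the latter 2 treatments. Summed within a rat, WY14643 lowered 37 and raised 3, valproic acid lowered 16 and naproxen lowered 1 (25 at an unadjusted p under 0.05).

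With diclofenac, where 36.0% of all genes were higher and 35.8% lower, all but 4 of the 36 other small subunit factors rose and none fell. They were led by Ltv1 (1.54 ± 0.09), Rrp7a (1.12 ± 0.06) and Pno1 (1.52 ± 0.09). Of 33 other 60S factors, 32 rose, with Tex10 (1.40 ± 0.08), Rsl24d1 (1.54 ± 0.10) and Ddx55 (1.35 ± 0.09) first by adjusted p. With 10000 µM acetaminophen, where 38.8% of all genes were higher and 40.1% lower, the 60S list had 6 higher and 18 lower. Las1l (1.38 ± 0.07) and the pair Npm3 (-1.73 ± 0.13) and Noc3l (-1.17 ± 0.11) were at its front. The small subunit list had 18 higher and 13 lower. Among 11 other proteins of the box C/D and H/ACA particles, 9 rose and 1 fell with diclofenac. Naf1 (1.23 ± 0.09) and Nhp2 (1.68 ± 0.14) were among those that rose. With acetaminophen 2 rose and 4 fell, among them Nop10 (1.73 ± 0.25) upward and Ruvbl1 (-1.12 ± 0.10) and Nhp2 (-1.04 ± 0.16) downward.

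Among the 14 other genes of RNA polymerase I and its factors, 12 rose and 1 fell with diclofenac, against 36.0% and 35.8% of all genes. Taf1a (2.24 ± 0.15), a subunit of the promoter selectivity factor, was first. Cd3eap, another polymerase subunit, had an L2FC of 1.32 with diclofenac, -1.79 with 10000 µM acetaminophen, -1.05 with 400 µM valproic acid and -1.01 and -0.76 with 200 and 8 µM WY14643, and was a DEG in each. Polr1a, the largest subunit, rose with chloramphenicol (0.92) and ketoconazole (0.60) and fell with diclofenac (-0.41), ranitidine (-0.56) and valproic acid (-1.05 at 10000 µM), while Polr1b rose with diclofenac. Polr1a and the series of Cd3eap were singled out after their values were seen.

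Of the MYC network, 7 genes were tested, of which Myc, Max and Mxd4 were followed over the treatments after their values were seen. As a list, 0 to 5 of the 7 rose and 0 to 3 fell at a high concentration. With diclofenac 5 rose, among them Mnt (1.29 ± 0.13), Mga (1.25 ± 0.14) and Mlx (0.56 ± 0.15), and Mxi1 (-0.64 ± 0.12) and Mxd4 fell, against 36.0% of all genes higher and 35.8% lower. Myc itself rose with diclofenac (0.74) and ketoconazole (0.43 ± 0.17) and fell with 10000 and 400 µM valproic acid (-1.86 ± 0.19 and -1.04 ± 0.18), acetaminophen (-1.19 ± 0.18), 8 and 200 µM WY14643 (-0.77 ± 0.18 and -0.61 ± 0.17) and 100 µM sulfasalazine (-0.50 ± 0.17). With indomethacin its L2FC was 0.35 and did not pass the test. Max, the partner of MYC on DNA, rose in 12 treatments, in which 16.1% to 38.8% of all genes were higher, and most with diclofenac (1.79 ± 0.14). Mxd4, a partner of MAX that opposes MYC, rose with 10000 µM acetaminophen (0.59 ± 0.10) and fell in 14 treatments, by L2FC from -0.27 with 400 µM to -1.62 ± 0.10 with 10000 µM valproic acid. The part of these genes in the response of the ribosome biogenesis genes was not tested.

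The p53 and nucleolar stress readouts had 7 tested genes. With 10000 µM acetaminophen 5 rose and 1 fell (median L2FC 1.30, against 38.8% of all genes higher and 40.1% lower), led by Cdkn1a (2.97 ± 0.17), an inhibitor of the cell cycle, and Sesn2 (1.54 ± 0.13). With diclofenac 6 rose and 1 fell (1.37, against 36.0% and 35.8%), with Sesn2 (1.71 ± 0.13) and Mdm2, the ubiquitin ligase of p53 (1.60 ± 0.13). Doxorubicin, with 9.07% of all genes higher, raised 4 (Mdm2 1.28 ± 0.13, Cdkn1a 1.45 ± 0.17, Phlda3 0.66 ± 0.09) in wells where the ribosome biogenesis genes had a median L2FC of 0.12. Chloramphenicol raised 2 and lowered 2, against 16.1% and 17.2% of all genes, and 1 and 1 with wells summed within a rat. Ranitidine raised 6 and lowered none (32.3% of all genes higher), and ketoconazole (25.0%) and 2000 µM naproxen (27.6%) raised 5 and lowered 1 each. Caffeine raised 4 and lowered 1 (34.6%), and 10000 µM valproic acid 4 and none (33.5%). Indomethacin raised 1 and lowered 2 (27.1% and 27.6%), and 1 and none summed within a rat. Simvastatin (60 µM) and 100 µM sulfasalazine lowered 3 each and raised none (12.5% and 19.6% lower), and lowered 1 and 2 summed within a rat.

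The ST assay was run on lysate of the same wells and checks the probes, not the rats. Of the 20 genes measured in both assays, 14 shared the probe number, and Npm1, Wdr12, Wdr43, Gnl3, Ddx21 and Rbm34 had another probe. Over the 19 genes tested in both, 19 rose with diclofenac in both assays (ST median 1.49, WT 1.31, with 39.0% of the 1760 genes tested by ST higher and 40.7% lower), 18 by ST and 16 by WT with chloramphenicol (ST background 19.4% higher), 17 and 16 with ketoconazole (28.5%), 17 and 14 with indomethacin (28.5%), and 15 and 11 with ranitidine (34%). With 400 µM valproic acid 14 fell by ST and 12 by WT (22.3% of all genes lower by ST), and with 8 µM WY14643 12 and 10 (30.0%). In no comparison was a gene called in opposite directions by the assays, and none was called by both with 4 µM sulfasalazine (1 higher and 2 lower by WT, 1 lower by ST), 60 µM simvastatin (1 and 3 higher) or culture medium (1 and 1 higher). With 10000 µM acetaminophen the ST assay had 8 higher and 7 lower (38.6% and 42.0% of all genes) against 5 and 10 by WT. Gnl3 had an ST L2FC of 1.46 ± 0.20 from another probe against 0.31 in the WT assay, where it had 0.788 to 3.09 CPM. Heatr1, a processome subunit measured only by ST, rose with diclofenac (1.54 ± 0.12), ranitidine (1.03 ± 0.12), ketoconazole (1.01 ± 0.12), chloramphenicol (0.96 ± 0.12) and indomethacin (0.57 ± 0.12), and fell with 8 µM WY14643 (-0.59 ± 0.13), 400 µM valproic acid (-0.53 ± 0.13) and 80 µM naproxen (-0.45 ± 0.13). It also rose with 10000 µM caffeine (0.39 ± 0.13), valproic acid (0.38 ± 0.12) and isoniazid (0.33 ± 0.12), and fell with 100 µM sulfasalazine (-0.37 ± 0.13) and 10000 µM acetaminophen (-0.28 ± 0.13).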

How the data were processed

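Lysates of 186 wells were each profiled with the TempO-Seq WT and ST assays (372 libraries). The authors aligned reads with STAR 2.5.3a, allowing 2 mismatches, to rn6 and deposited raw read counts per probe. Here the counts of all probes of a symbol were added, genes with a mean under 10 counts were left out, and edgeR 4.0.16 (R 4.3.3, trimmed-mean scaling, quasi-likelihood test, batch as a term) was fitted to all wells of an assay. Adjusted p-values are Benjamini-Hochberg values over all genes tested. The SE of an L2FC was computed from the F statistic and is approximate. The wells of a batch come from 1 rat, so p-values measure mainly the spread between technical wells, and precision from read depth covers counting error only.

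Replicate numbers run on across the batches, each of which holds 1 rat, and batch stood in the fit as the block. A test on simulated WT counts recovered 186 of 200 changed genes. The genes and lists were chosen with earlier results of these data known. In each comparison, up to 4 genes with the largest rise and fall among DEGs of like sign in both batches were named, with genes of set roles, those called most and least often, and up to 3 genes per list by adjusted p. Alternatives were DESeq2 1.42.0, median-ratio scaling, total reads alone, no filter on counts, wells summed within a rat, no batch term, each batch alone, vehicle wells of the same plate, and leaving out the wells of 1 replicate number. Each replicate number lies in a single batch, so such a fit left out wells of that batch only. The highest numbers belong to vehicle and culture medium wells alone.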

Additional observations from a re-analysis of the deposited data

Results flagged for a closer look

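The wells of 62 groups were examined for a well apart from the others by Dixon's gap test, which flags about 1 group in 20 by chance. One well of 15 µM ketoconazole, in batch 2, had a summed level of the ribosome biogenesis genes of 2850 CPM against 2180 to 2370 CPM in the other wells. A culture medium well of batch 2 had 1300 CPM against 1150 to 1190 CPM. In total reads, the highest well of 2 µM doxorubicin (7492070), the lowest of 10000 µM valproic acid (4007480) and the lowest of culture medium in batch 2 (2289425) stood apart.

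The L2FC of ribosome biogenesis genes differed between the batches, which are 1 rat each, by the interaction test in 12 genes with 4000 µM ranitidine, in 10 with 10000 µM valproic acid, in 7 each with diclofenac, ketoconazole and caffeine, in 4 with acetaminophen, in 2 with indomethacin, and in 1 each with isoniazid, 2000 µM naproxen and 0.08 µM doxorubicin. The shares of all genes that differed were 13%, 8.64%, 10.1%, 3.29%, 8.78%, 6.47%, 2.5%, 1.06%, 1.65% and 2.91%, in that order.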

How the results depend on the processing

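Of 420 calls of a ribosome biogenesis gene over 43 comparisons, DESeq2 kept 417, median-ratio scaling 414, no filter on counts 389, total reads alone 386 (with 60 added), batch 2 alone 360, a fit without the replicate block (batch) 348, wells summed within a rat 279 and batch 1 alone 247, and none was called with the opposite sign. With wells summed within a rat the counts were 8 for caffeine, 10 for chloramphenicol, 0 for 2 µM doxorubicin, 1 for isoniazid, 5 for 2000 µM naproxen, 0 for 60 µM simvastatin, 1 for 100 µM sulfasalazine, 0 for 200 µM WY14643, 0 for culture medium and 16 (of 43) for the low concentrations together. Without the replicate block they were 1 for isoniazid, 0 for simvastatin, 3 for sulfasalazine, 2 for WY14643, 0 for medium and 27 for the low concentrations. Batch 1 alone gave 8 for chloramphenicol, 0 for doxorubicin, 11 for indomethacin, 6 for isoniazid, 7 for ketoconazole, 4 for naproxen, 0 for simvastatin, 3 for sulfasalazine, 2 for WY14643, 0 for medium and 119 (of 179) for high against low, and batch 2 alone 7 for doxorubicin, 1 for simvastatin and 5 for WY14643. Vehicle of the same plate gave 9 for doxorubicin, 1 for isoniazid and 4 for WY14643, total reads alone 0 for simvastatin, 17 for WY14643 and 0 for medium, and no filter 5 for WY14643 and 0 for medium. Leaving out the wells of a replicate number gave 3 to 8 for WY14643, 0 to 1 for medium, 1 to 4 for doxorubicin, 1 to 3 for simvastatin and 5 to 11 for sulfasalazine. The median L2FC changed sign for 10000 µM valproic acid (0.14 with total reads alone, 0.17 in batch 2, 0.26 with vehicle of the same plate), medium (-0.04 with total reads alone, -0.02 in batch 1), isoniazid (-0.02 summed within a rat, -0.17 in batch 1, -0.05 to 0.05 when the wells of a replicate number were left out), caffeine (-0.14 in batch 1) and doxorubicin (-0.03 in batch 1). The cause was not tested.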

Other observations

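The genes of the ribosomal proteins themselves, 46 of which were tested, were counted after values had been seen. With 10000 µM acetaminophen 43 ribosomal protein genes rose and 1 fell (median L2FC 0.99), against 38.8% of all genes higher and 40.1% lower, and on a scale of total reads alone 37 rose and 2 fell (0.58). With ketoconazole 41 rose and none fell (0.71, against 25.0% of all genes higher), with diclofenac 40 and none (0.47, against 36.0%), with indomethacin 39 and none (0.54, against 27.1%), with 2000 µM naproxen 37 and 1 (0.39, against 27.6%), with ranitidine 36 and 3 (0.62, against 32.3%) and with isoniazid 26 and none (0.30, against 17.4%). On total reads alone the numbers that rose in these 6 treatments were 41, 42, 36, 37, 34 and 28.

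In other treatments the counts of ribosomal protein genes depended on the scale. Chloramphenicol raised 12 and lowered none (0.12), against 16.1% of all genes higher, and 27 rose on total reads alone (0.25). Caffeine raised 20 and lowered 6 (0.23, against 34.6% and 31.6%), with 11 and 8 on total reads alone (0.11). With 10000 µM valproic acid 3 rose and 15 fell (-0.18, against 33.5% and 33.2%), and on total reads alone 17 rose and 5 fell (0.09). With 200 µM WY14643 9 rose and none fell (0.06, against 26.0% and 25.3%), and on total reads alone none rose and 14 fell (-0.18). With 100 µM sulfasalazine 4 rose and 7 fell (-0.07, against 21.3% and 19.6%), with 2 and 22 on total reads alone (-0.20). At low concentrations, 400 µM valproic acid lowered 6 (-0.16, against 14.0% of all genes lower), or 13 on total reads alone (-0.20), and 8 µM WY14643 raised 10 and lowered 8 (-0.06, against 28% and 28.2%), or 1 and 30 on total reads alone (-0.34). Culture medium alone raised 15 (0.18, against 7.51% of all genes higher), or 5 on total reads alone (0.10). With wells summed within a rat, the ribosomal protein genes that rose numbered 41 with 10000 µM acetaminophen, 40 with ketoconazole, 36 with indomethacin, 35 with diclofenac, 33 with ranitidine, 26 with naproxen, 11 with isoniazid, 2 with chloramphenicol, 4 with 200 µM WY14643 and none with culture medium. In that fit 400 µM valproic acid lowered none (5 at an unadjusted p under 0.05), 100 µM sulfasalazine raised 2 and lowered 1, and 8 µM WY14643 raised 3 and lowered 3.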
